A study of Mus musculus with 21 samples.

Results

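RNA of CD62L-neg granulocyte-monocyte progenitors (GMPs) and of CD62L-int GMPs from mouse bone marrow was compared, with 3 libraries of each population. These 6 libraries were chosen by their labels alone, out of 21 libraries of 7 populations, and the labels call the CD62L-int population CD62L-low GMP. Both populations were sorted by flow cytometry from bone marrow of untreated adult C57/B6 mice, inside the GMP gate of lineage-negative, Sca-1-negative, c-Kit-positive cells that carry CD34 and CD16/32. CD62L-neg GMPs were the cells with the least CD62L on their surface, and CD62L-int GMPs were taken from the lower end of the CD62L-positive range. The upper end gave the CD62L-high GMPs, and bulk GMPs were the whole gate. Whether the 3 libraries of a population came from separate mice is not given in the sources used here, so p-values measure the spread between these libraries, which may be technical. The comparison asks which genes separate GMPs without CD62L from GMPs at the first step of its gain.

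CD62L is an adhesion receptor by which leukocytes roll on vessel walls. GMPs are classically described as the source of neutrophils and monocytes. The eosinophil, basophil and mast cell lineages also arise from marrow progenitors and are known to depend on GATA factors, above all GATA-2 and GATA-1. Monocyte fate is known to depend on IRF8 and KLF4, and granulocyte fate on the C/EBP family and GFI1.

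The deposited counts came to 12148893 to 12764020 per CD62L-neg library and to 11360760 to 15263573 per CD62L-int library. Gm23935, Gm26917 and Gm42418, abundant gene models that code for no known protein, took 25.3% to 26.9% of the counts in CD62L-neg libraries and 25.1% to 27.7% in CD62L-int libraries. On principal components of the 12 GMP libraries, the CD62L-neg libraries stood at 35.2 to 39.5 on the first component, apart from the CD62L-int libraries at -7.46 to -2.41, and this component held 47.5% of the variance. One CD62L-high library stood apart from the other two, with 41.1% of its counts in those gene models. It enters the scaling of the CPM values, the principal components, the comparison of the steps and the fit of all 12 GMP libraries, but not the main test of CD62L-neg over CD62L-int GMPs. The lineage markers of the gate were as labelled: Il7r had no count and Ly6a, which encodes Sca-1, had at most 0.664 CPM (the count scaled to library size) in any of the 6 libraries, whereas Kit averaged 272 ± 9.396 CPM in CD62L-neg and 206 ± 22.3 CPM in CD62L-int GMPs (SD, n = 3 each).

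Of 47643 genes in the table, 13194 had enough counts to be tested. With edgeR's quasi-likelihood test, 417 genes (3.16% of those tested) were higher and 321 genes (2.43%) were lower in CD62L-neg than in CD62L-int GMPs, where a call needed an adjusted p (Benjamini-Hochberg) below 0.05 together with a more than 2-fold difference. A gene that met both conditions is referred to as called. A gene with almost no count in one population entered the test through other libraries, so its call could only go one way. In the fit of all 12 GMP libraries, with the CD62L-high library that stood apart, 303 genes were called higher and 305 lower in CD62L-neg GMPs, in place of 417 and 321. The median log2 fold change of all tested genes was 0.01. The fold change passed 8 in 128 of the genes called higher and in 86 of those called lower. All 3 libraries of the one population lay beyond all 3 of the other in 415 of the 417 genes called higher. The same held for 318 of the 321 called lower and for 26.5% of all tested genes. The calls were made on these same libraries, so this separation largely follows from them and is no further support. In bulk RNA, fewer cells that express a gene and less of its RNA per cell cannot be told apart, and this holds for every level below.

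**Figure D1:**
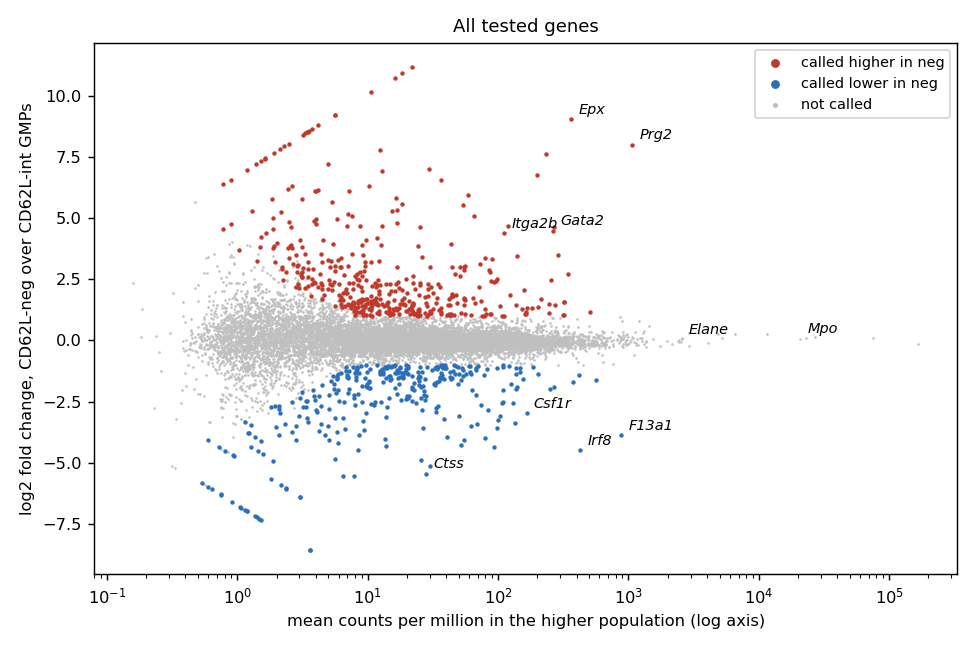
Each point is 1 of the 13194 tested genes, with the mean CPM in the population where it was higher on a log axis and the log2 fold change of CD62L-neg over CD62L-int GMPs on the other. The 417 genes called higher in CD62L-neg GMPs are red and the 321 called lower are blue; points on slanted lines at the left are genes with no count in one population, whose fitted fold changes depend on the prior count. Epx and Prg2 lie near the top, Irf8, F13a1 and Ctss near the bottom, and Mpo and Elane at the right on the zero line.

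Ly6c2, which encodes the monocyte surface antigen Ly6C, was lower in CD62L-neg GMPs, with 186, 175 and 193 CPM in CD62L-neg libraries against 586, 532 and 584 CPM in CD62L-int libraries. Ly6c1 is a close copy of it, so reads may be split between them. The gate genes Kit, Cd34, Fcgr3 and Fcgr2b were not called. Selp, which encodes P-selectin, was called lower, with 0.763, 0.159 and 0 CPM in CD62L-neg libraries against 4.89, 7.57 and 5.18 CPM in CD62L-int libraries. Selplg, which encodes the P-selectin ligand PSGL-1, had 85.9, 105 and 80.5 CPM in CD62L-neg libraries against 165, 189.7 and 180.1 CPM in CD62L-int libraries and missed the fold threshold, at a log2 fold change of -0.97 ± 0.10 (SE). Fut7, the fucosyltransferase that completes selectin ligands, lay on the other side, at 33.1, 33.8 and 28.1 CPM in CD62L-neg libraries against 11.2, 18.2 and 18.9 CPM in CD62L-int libraries, and also missed it at a log2 fold change of 0.99 ± 0.20 (SE). Of 9 genes known to regulate homing receptors in lymphocytes, 6 were tested: Klf2 was lower, and Ets1 and Tcf7 were higher. Over all tested genes, 2.43% were called lower and 3.16% higher. Klf2 had 64.7, 33.9 and 56.01 CPM in CD62L-neg libraries against 109.5, 183 and 174 CPM in CD62L-int libraries, and Ets1 had 48.5, 47.9 and 57.3 CPM in CD62L-neg libraries against 8.76, 4.31 and 11.3 CPM in CD62L-int libraries. In bulk GMPs Klf2 averaged 261 CPM, above the means of CD62L-neg, CD62L-int and CD62L-high GMPs (51.5, 155.5 and 163 CPM). The reason was not tested. Tcf7 rested on 121 counts in CD62L-neg and 15 counts in CD62L-int GMPs, and its call was lost in 5 of the 6 fits that left out 1 of these libraries (adjusted p 0.0589 to 0.152 in those 5).

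Genes of eosinophil granules were among those with the largest differences. Of 10 eosinophil genes listed, 9 were tested and 8 were called higher in CD62L-neg GMPs, none lower, against 3.16% of all tested genes. Ear6, Ear1, Ear2 and Il5ra had 2 counts or fewer in the pooled CD62L-int libraries and could hardly have been called lower. The count of called members is therefore not a like-for-like match of that share. Prg2, the major basic protein of the eosinophil granule, stood at 844, 1350 and 1005 CPM in CD62L-neg libraries and at 2.99, 3.34 and 6.05 CPM in CD62L-int libraries. Epx, the eosinophil peroxidase, stood at 297, 426 and 369 CPM in CD62L-neg libraries against 0.679, 1.58 and 0 CPM in CD62L-int libraries. Neither gene came near an overlap, and the log2 fold changes were 8 ± 0.21 and 9.04 ± 0.33 (SE, adjusted p = 1.62e-16 and 1.75e-14, edgeR). Prg3, a paralog of Prg2, had 41.3, 78.7 and 57.4 CPM in CD62L-neg libraries against 1.22, 0.792 and 0.864 CPM in CD62L-int libraries. The eosinophil ribonucleases Ear1, Ear2 and Ear6 were at 7.71, 9.77 and 14.5 CPM, 10.8, 16.4 and 10.2 CPM and 16.8, 17.9 and 31.2 CPM in CD62L-neg libraries. The pooled CD62L-int libraries held no count of Ear6 or Ear1 and 2 counts of Ear2. With a floor of 3 counts over the pooled CD62L-int libraries, Ear6 was at least 300-fold and Ear1 at least 146-fold higher in CD62L-neg GMPs, and Ear2 was 256-fold higher (95% counting interval 70.5 to 2120). The Ear genes are near copies of each other, so the level of each single copy is uncertain. Il5ra, the receptor subunit for the eosinophil growth factor interleukin-5, had 8.86, 4.05 and 1.92 CPM in CD62L-neg libraries and 1 count in all CD62L-int libraries together, which gave a ratio of 206 (95% counting interval 36.5 to 8170).

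Siglecf, an inhibitory lectin of eosinophils, differed less than the granule genes, at 38.4, 58.7 and 38.7 CPM in CD62L-neg libraries against 13.8, 12.8 and 11.7 CPM in CD62L-int libraries. Alox15, a lipoxygenase of eosinophils and macrophages, was not called (adjusted p = 0.0566, edgeR). Ccr3, the eotaxin receptor, was not tested and had 0.0764 CPM in 1 CD62L-neg library and no count in the other 5 libraries. The summed level of the list was 1270 to 1960 CPM in CD62L-neg libraries against 18.6 to 19.1 CPM in CD62L-int libraries. The median log2 fold change of its tested genes was 7.76, or 7.69 with the genes of few counts set at their bound, against 0.01 over all tested genes. Bulk GMPs, which hold both populations, had 7.75%, 8.32% and 8.19% of the CD62L-neg level for Epx, Prg2 and Prg3. CD62L-int GMPs had 0.207%, 0.387% and 1.62% of it.

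Epx lies on chromosome 11 (GRCm38, 87864000 to 87875536, minus strand, GENCODE vM21), with 59586 bases between it and Mpo, the myeloperoxidase gene (87793581 to 87804413, plus strand). Mpo is the peroxidase of neutrophil and monocyte granules and one of the most abundant transcripts of GMPs. It had 19790, 21230 and 21210 CPM in CD62L-neg libraries against 20930, 18500 and 20360 CPM in CD62L-int libraries, a log2 fold change of 0.07 ± 0.06 (SE, adjusted p = 0.5396, edgeR). The Mpo libraries of the populations overlapped, whereas those of Epx, its neighbour, lay far apart. Prg2 and Prg3, which were both called higher, lie 4582 bases apart on chromosome 2 (84980461 to 84983632 and 84988215 to 84993886, both on the plus strand).

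Basophil and mast cell genes were higher in the same libraries. Of 17 listed, 16 were tested and 14 were called higher in CD62L-neg GMPs, none lower, against 3.16% of all tested genes. Of these 14, Csrp3, Cyp11a1, Cma1 and Tpsb2 had no count in CD62L-int GMPs and could not have been called lower. The basophil proteases Prss34 and Mcpt8 stood at 221, 305 and 176 CPM and 109, 162 and 87.98 CPM in CD62L-neg libraries. They stood at 1.02, 0.8799 and 1.59 CPM and 4.82, 2.99 and 5.98 CPM in CD62L-int libraries, for log2 fold changes of 7.62 ± 0.24 and 4.68 ± 0.23 (SE). Cpa3, the mast cell carboxypeptidase, had 236, 353 and 217 CPM in CD62L-neg libraries against 14.2, 11.3 and 7.18 CPM in CD62L-int libraries. Ms4a2, the beta chain of the high-affinity IgE receptor, had 156, 297 and 144 CPM in CD62L-neg libraries against 1.02, 2.46 and 2.13 CPM in CD62L-int libraries, a log2 fold change of 6.76 ± 0.30 (SE, adjusted p = 3.51e-13, edgeR). Its alpha chain gene Fcer1a was lower in level but separated as well, at 5.73, 10.3 and 5.05 CPM in CD62L-neg libraries against 0, 0 and 0.532 CPM in CD62L-int libraries. Il1rl1, the receptor for interleukin-33, had 30.5, 48.8 and 29.6 CPM in CD62L-neg libraries against 0, 1.32 and 0 CPM in CD62L-int libraries. Slc18a2, the vesicular monoamine transporter that loads histamine granules, had 27.6, 41.7 and 19.2 CPM in CD62L-neg libraries against 0.0679, 0.704 and 0 CPM in CD62L-int libraries.

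No count of Csrp3, Cyp11a1, Cma1 or Tpsb2 was found in CD62L-int GMPs. Csrp3, a LIM protein best known from muscle, and Cyp11a1, which starts steroid synthesis, were at least 249-fold and 223-fold higher in CD62L-neg GMPs. Cma1 and Tpsb2, a chymase and a tryptase of mast cells, were at least 75.8-fold and 22.3-fold higher. Hdc, the histidine decarboxylase that makes histamine, differed least of the called genes, with 325, 345 and 297 CPM in CD62L-neg libraries against 124, 109 and 98.6 CPM in CD62L-int libraries. Mitf, a transcription factor of mast cells, was not called and leaned the other way, at a log2 fold change of -0.82 ± 0.26 (SE). The summed level of the list was 1070 to 1740 CPM in CD62L-neg libraries against 132 to 170 CPM in CD62L-int libraries, and the median log2 fold change was 5.86, or 5.12 with bounds. In all 14 called genes the second CD62L-neg library was the highest of the 3, as it was in 5 of the 8 called eosinophil genes, so CD62L-neg libraries differed among themselves in these genes. Without that library, 360 genes were called higher in place of 417. Bulk GMPs had 11% to 36% of the CD62L-neg level for the 14 genes.

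**Figure D2:**
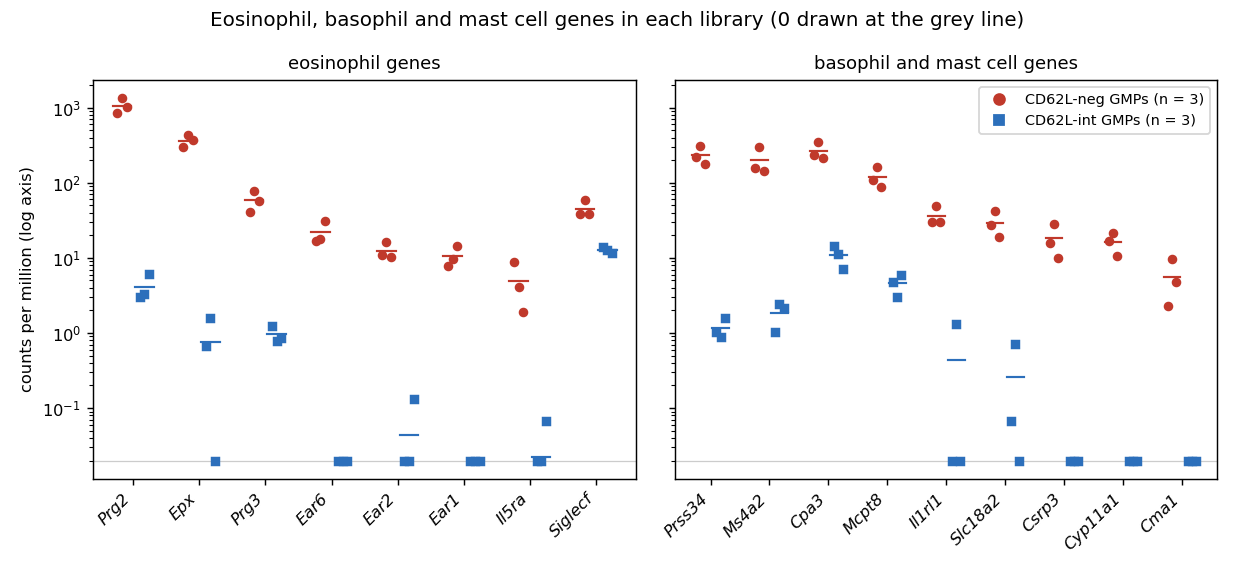
CPM on a log axis of 8 eosinophil genes and 9 basophil and mast cell genes in each of the 3 CD62L-neg libraries (red circles) and 3 CD62L-int libraries (blue squares), with the mean of each population as a bar and values of 0 drawn at the grey line. The populations do not overlap in any of the 17 genes; Siglecf has the smallest gap of those shown, and Ear6, Ear1, Csrp3, Cyp11a1 and Cma1 have no count in CD62L-int GMPs.

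Of 15 tested erythroid and megakaryocyte transcription factors, 5 were called higher in CD62L-neg GMPs, 1 was called lower and 9 were not called. Over all tested genes, 3.16% were called higher and 2.43% lower. Gata2, a factor of stem cells and of the mast cell and basophil lineages, had 233, 347 and 208 CPM in CD62L-neg libraries against 14.3, 11 and 10.03 CPM in CD62L-int libraries, a log2 fold change of 4.49 ± 0.18 (SE, adjusted p = 8.60e-14, edgeR). Gata1, the factor of erythroid, megakaryocyte and eosinophil lineages, had 8.47, 20.9 and 9.62 CPM in CD62L-neg libraries against 0.204, 0.08799 and 0 CPM in CD62L-int libraries. Gfi1b, a repressor of erythroid and megakaryocyte cells, had 4.505, 19.8 and 6.41 CPM in CD62L-neg libraries against 0.204, 0 and 0.133 CPM in CD62L-int libraries. Klf1, the erythroid Kruppel-like factor, had 4.05, 4.37 and 5.29 CPM in CD62L-neg libraries against 0, 0.08799 and 0.664 CPM in CD62L-int libraries. Zfpm1, the GATA cofactor FOG-1, had 34.5, 42.6 and 30.4 CPM in CD62L-neg libraries against 6.04, 4.05 and 13.6 CPM in CD62L-int libraries. Gata2 was thus the only one of these 5 genes above 100 CPM. Gata1, Gfi1b and Klf1 were nearly silent in CD62L-int GMPs and could hardly have been called lower. The one called lower was Mef2c, a factor of megakaryocytes and of lymphoid and myeloid progenitors, with 49.2, 47.4 and 35.6 CPM in CD62L-neg libraries against 93.6, 104 and 95.3 CPM in CD62L-int libraries. Tal1, a partner of GATA-1, was just under the threshold, with a log2 fold change of 0.93 ± 0.20 (SE), and was called in 3 of the 6 fits that left out 1 of these libraries. Lmo2, Ldb1, Lyl1, Fli1, Runx1 and Nfe2, which include further partners of that complex, were not called, with log2 fold changes between -0.25 and 0.41.

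Of 26 tested myeloid transcription factors, 2 were called higher and 7 lower in CD62L-neg GMPs, against 3.16% and 2.43% of all tested genes. Irf8, the interferon regulatory factor of monocytes and dendritic cells, had the most negative log2 fold change of these factors. It had 22.8, 21.2 and 13.1 CPM in CD62L-neg libraries against 421, 444 and 418 CPM in CD62L-int libraries, a log2 fold change of -4.48 ± 0.14 (SE, adjusted p = 1.81e-15, edgeR). Klf4, another monocyte factor, had 13.8, 10.96 and 6.41 CPM in CD62L-neg libraries against 72.2, 111 and 118 CPM in CD62L-int libraries. Irf5, which acts downstream of Toll-like receptors, had 7.63, 5.797 and 3.69 CPM in CD62L-neg libraries against 20.2, 29.5 and 31.03 CPM in CD62L-int libraries. Nr4a1, an orphan nuclear receptor of monocytes, Rara, a retinoic acid receptor, Klf2 and Nfil3 were the other 4, with log2 fold changes between -1.88 and -1.50. Bulk GMPs had 108% to 189% of the CD62L-int level for the 7 genes called lower. The 2 called higher were Cebpe and Egr1. Cebpe, a factor of late neutrophil and eosinophil granules, had 48.6, 56.1 and 59.6 CPM in CD62L-neg libraries against 15.4, 13.7 and 21.2 CPM in CD62L-int libraries. Egr1, an immediate early factor, had 158, 159 and 102 CPM in CD62L-neg libraries against 6.65, 15.1 and 17.1 CPM in CD62L-int libraries.

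Central factors of the GMP itself were not called. Cebpa averaged 170 ± 22.8 CPM in CD62L-neg and 151 ± 2.82 CPM in CD62L-int GMPs (SD, n = 3 each), and Spi1, which encodes PU.1, averaged 132 ± 16.2 CPM in CD62L-neg and 139 ± 5.55 CPM in CD62L-int GMPs. Their log2 fold changes were 0.18 ± 0.10 and -0.06 ± 0.11 (SE), and neither passed the test. Gfi1, the neutrophil factor, had 119.6, 122 and 136 CPM in CD62L-neg libraries against 69.2, 70.7 and 79.9 CPM in CD62L-int libraries. The libraries did not overlap and the adjusted p was 1.40e-05 with edgeR, but its log2 fold change of 0.79 ± 0.11 (SE) was under the fold threshold. Zeb2 leaned the other way in the same manner, with 216, 206 and 231 CPM in CD62L-neg libraries against 397, 436 and 394 CPM in CD62L-int libraries. Myc had a log2 fold change of 0.08 ± 0.08 (SE) and was not called.

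**Figure D3:**
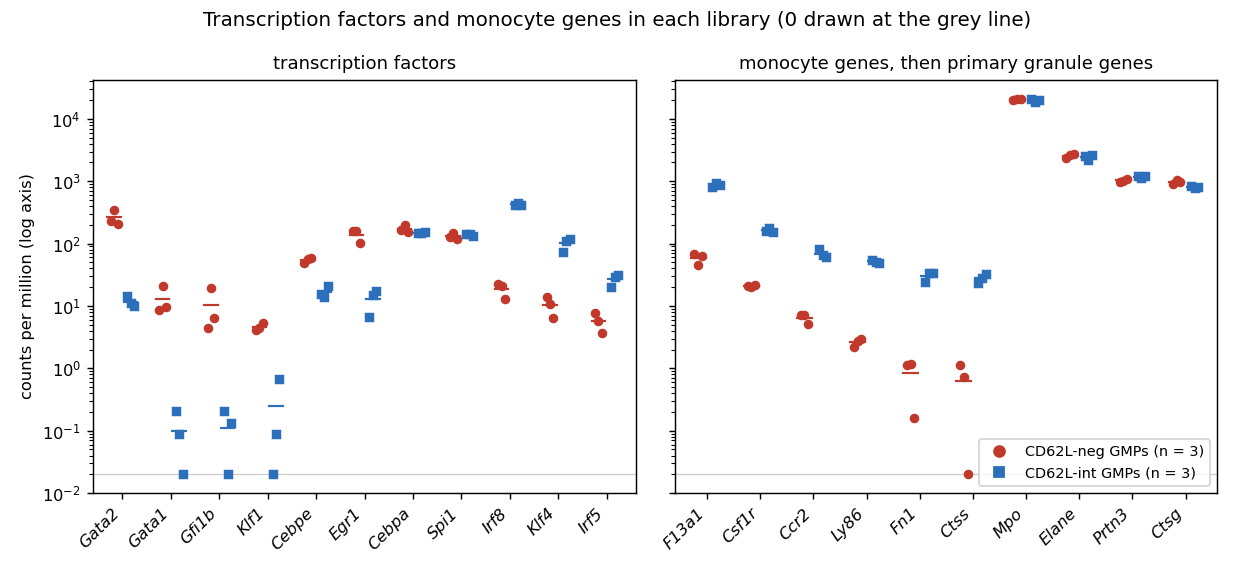
CPM on a log axis of 11 transcription factors (left) and of 6 monocyte genes followed by 4 primary granule genes (right) in each CD62L-neg library (red circles) and CD62L-int library (blue squares), with population means as bars and values of 0 at the grey line. Gata2, Gata1, Gfi1b, Klf1, Cebpe and Egr1 lie higher in CD62L-neg GMPs, Irf8, Klf4, Irf5 and all 6 monocyte genes lie lower, and Cebpa, Spi1, Mpo and Elane lie side by side.

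Promoter sequences of the called genes were searched for the letters of GATA, PU.1, C/EBP and RUNX motifs, the factor families described above. RefSeq promoters of GRCm38.p6, 250 bases before to 50 bases after the start, were found for 301 of the 417 genes called higher, 247 of the 321 called lower and 9111 tested genes in all. A gene counted if any of its promoters held the letters, and the number of promoters per gene was not compared. AGATAA or TGATAA are the letters of a GATA motif. On either strand, they occurred for 23.3% of the genes called higher, 17% of those called lower and 12.3% of all. GAGGAAGT, the letters of a PU.1 motif, occurred for 5.65% of the genes called higher, 9.72% of those called lower and 4% of all. TTGCNNAA for C/EBP occurred in 14.6%, 14.6% and 10.1% of them, and TGTGGTTT or TGTGGTCT for RUNX in 5.32%, 4.86% and 2.81%. All 4 motifs were more frequent in both groups of called genes than over all tested genes with a promoter. A match is a string of letters and not a measured binding site.

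The 250 bases before the start are shown for genes named above, as examples with and without such letters, 5′ to 3′ on the gene's strand, with motif letters in capitals. Ms4a2 (chr19:11623720-11623969, minus strand) held GATA letters at 3 places, which begin 11, 37 and 224 bases before the start, and Gp1ba (chr11:70638872-70639121, plus strand), a platelet gene described below, held them at 2 places. Prg3 (chr2:84987965-84988214, plus strand), Il5ra (chr6:106749038-106749287, minus strand), Prss34 (chr17:25298144-25298393, plus strand) and Gfi1b (chr2:28621983-28622232, minus strand) held them at 1 place each. Epx (chr11:87875537-87875786, minus strand) held none of the 4 motifs in this window. Ly6c2 (chr15:75111938-75112187, minus strand), which was lower in CD62L-neg GMPs, held PU.1 letters at 2 places. RefSeq lists a second start for Ly6c2, not shown. The examples do not divide the motifs by direction of change. Cybb, Ccr2 and Il6ra, which were called lower, held GATA letters in this window. Pf4, which was called higher, held PU.1 letters. These genes are described below and their sequences are not shown.
Ms4a2: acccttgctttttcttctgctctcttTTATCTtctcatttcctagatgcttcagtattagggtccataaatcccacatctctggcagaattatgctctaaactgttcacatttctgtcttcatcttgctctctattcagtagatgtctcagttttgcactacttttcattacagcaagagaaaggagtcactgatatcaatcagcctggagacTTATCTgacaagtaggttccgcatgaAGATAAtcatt
Gp1ba: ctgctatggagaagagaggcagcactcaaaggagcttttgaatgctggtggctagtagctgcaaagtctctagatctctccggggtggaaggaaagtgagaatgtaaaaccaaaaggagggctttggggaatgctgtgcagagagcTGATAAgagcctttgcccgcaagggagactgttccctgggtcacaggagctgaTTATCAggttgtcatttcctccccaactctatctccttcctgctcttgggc
Prg3: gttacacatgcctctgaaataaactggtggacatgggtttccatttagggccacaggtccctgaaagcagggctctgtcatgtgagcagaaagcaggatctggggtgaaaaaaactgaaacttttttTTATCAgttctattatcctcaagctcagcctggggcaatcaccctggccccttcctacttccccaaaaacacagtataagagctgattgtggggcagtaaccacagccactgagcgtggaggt
Il5ra: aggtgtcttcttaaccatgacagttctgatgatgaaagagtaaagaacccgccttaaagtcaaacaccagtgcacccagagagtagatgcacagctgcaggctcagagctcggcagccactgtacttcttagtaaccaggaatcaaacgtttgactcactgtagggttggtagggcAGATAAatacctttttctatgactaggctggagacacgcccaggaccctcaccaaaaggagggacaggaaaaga
Prss34: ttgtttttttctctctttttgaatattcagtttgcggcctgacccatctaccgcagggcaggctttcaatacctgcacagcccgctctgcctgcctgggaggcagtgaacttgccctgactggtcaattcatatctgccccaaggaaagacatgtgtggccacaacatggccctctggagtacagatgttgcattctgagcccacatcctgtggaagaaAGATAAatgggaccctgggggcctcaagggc
Gfi1b: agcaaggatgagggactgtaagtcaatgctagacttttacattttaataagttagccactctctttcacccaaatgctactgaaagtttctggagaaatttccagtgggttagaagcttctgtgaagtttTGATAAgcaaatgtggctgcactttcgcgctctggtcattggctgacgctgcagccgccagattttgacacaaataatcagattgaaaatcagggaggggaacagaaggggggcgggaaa
Epx: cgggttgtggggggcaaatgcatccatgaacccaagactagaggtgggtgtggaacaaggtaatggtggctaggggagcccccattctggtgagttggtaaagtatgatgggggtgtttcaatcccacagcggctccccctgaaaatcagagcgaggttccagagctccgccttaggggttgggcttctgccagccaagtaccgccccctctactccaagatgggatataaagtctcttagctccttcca
Ly6c2: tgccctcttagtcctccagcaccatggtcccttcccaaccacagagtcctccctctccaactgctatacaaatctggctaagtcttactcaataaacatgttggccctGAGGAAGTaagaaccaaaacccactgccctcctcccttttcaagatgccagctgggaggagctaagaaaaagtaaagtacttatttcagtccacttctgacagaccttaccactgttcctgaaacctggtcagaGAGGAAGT

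Of 28 megakaryocyte and platelet genes listed, 15 had enough counts to be tested. In CD62L-neg GMPs, 10 of these were called higher and 1 lower, against 3.16% and 2.43% of all tested genes. Slc35d3 had no count and Pf4 had 2 counts in the pooled CD62L-int libraries, and Gp9, Gp1ba, Rab27b and Vwf had 7 to 15 counts. These genes could hardly have been called lower, so the count of called members is not a like-for-like match of those shares. The summed level of the list was 181 to 226 CPM in CD62L-neg libraries against 49.6 to 64.7 CPM in CD62L-int libraries. Itga2b, which encodes CD41 and is also expressed by mast cell and early progenitors, was the most abundant of those called. It had 106, 129 and 100.4 CPM in CD62L-neg libraries against 7.06, 4.66 and 4.45 CPM in CD62L-int libraries, a log2 fold change of 4.37 ± 0.18 (SE, adjusted p = 1.27e-13, edgeR). Cd9, a tetraspanin of platelets and of other cells, had 17.3, 33.99 and 23.4 CPM in CD62L-neg libraries against 9.71, 7.13 and 3.79 CPM in CD62L-int libraries. Pf4, Vwf, Gp9 and Gp1ba, which are more specific to platelets, and Rab27b stayed under 10 CPM in each of the 6 libraries. Pf4, platelet factor 4, had 2.596, 2.7 and 6.73 CPM in CD62L-neg libraries and 2 counts over all CD62L-int libraries, a ratio of 81.9 (95% counting interval 22.3 to 683). Slc35d3, a platelet dense granule gene, had no count in CD62L-int GMPs and was at least 20.8-fold higher in CD62L-neg GMPs. Vwf, Gp9, Gp1ba and Rab27b were called higher at mean levels of 2.46 to 3.47 CPM in CD62L-neg GMPs, and each lost its call in at least 1 of the 6 fits that left out 1 of these libraries. The count of members called higher fell to 6 without the second or the third CD62L-neg library or the third CD62L-int library, and in the fit of all 12 GMP libraries. Ppbp, Tubb1 and Gp6 were among the 13 not tested. The one lower member was Selp, described above.

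Of 28 erythroid genes listed, 9 were tested and 3 were called higher in CD62L-neg GMPs, none lower, against 3.16% of all tested genes. The summed level of the list was 269 to 294 CPM in CD62L-neg libraries against 193 to 201 CPM in CD62L-int libraries. The 3 called genes were Tfr2, the second transferrin receptor, Car2, a carbonic anhydrase, and Icam4, an erythroid adhesion protein. Tfr2 had 32.1, 34.2 and 25.1 CPM in CD62L-neg libraries against 5.97, 6.86 and 7.51 CPM in CD62L-int libraries. Car2 had 20.2, 18.4 and 13.3 CPM in CD62L-neg libraries against 4.01, 5.103 and 2.86 CPM in CD62L-int libraries, and Icam4 had 4.96, 6.27 and 6.49 CPM in CD62L-neg libraries against 0.815, 0.792 and 0.199 CPM in CD62L-int libraries. Epor had 42 counts in all CD62L-neg libraries and none in CD62L-int libraries, and Car1 had 32 counts and none. Alas2 and the globin genes Hbb-bs, Hbb-bt, Hba-a1 and Hba-a2 stayed at or under 1.26 CPM in every one of the 6 libraries. Tfrc, the main transferrin receptor of dividing cells, gave the largest part of the sum, with 154, 128 and 152 CPM in CD62L-neg libraries against 113, 115 and 118 CPM in CD62L-int libraries, and was not called.

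Of 20 tested genes of stem and multipotent progenitors, 6 were called higher and 1 lower in CD62L-neg GMPs. The shares over all tested genes were 3.16% and 2.43%. Angpt1, the ligand of the Tie2 receptor, had 80.5, 110.1 and 66.8 CPM in CD62L-neg libraries against 12.8, 12.8 and 9.502 CPM in CD62L-int libraries. Adgrg1, the adhesion receptor GPR56, had 298, 369.5 and 287 CPM in CD62L-neg libraries against 124, 99.6 and 98.7 CPM in CD62L-int libraries. Hoxa7, Meis1 and Msi2, regulators of early progenitors, were among the others, with log2 fold changes of 1.08 to 1.28. Meis1 lost its call without the third CD62L-neg library. The lower gene was Flt3, the receptor tyrosine kinase of multipotent and dendritic progenitors, with 4.43, 4.05 and 3.53 CPM in CD62L-neg libraries against 12.6, 13.9 and 12.96 CPM in CD62L-int libraries. Hoxb4, Erg and Mecom were not called, and Slamf1, Esam and Robo4 were not tested.

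Most monocyte genes were lower in CD62L-neg GMPs. Of 25 monocyte and macrophage genes listed, 21 were tested, 16 were called lower and none higher, against 2.43% of all tested genes. F13a1, the coagulation factor XIII subunit of monocytes, had 69.02, 45.6 and 62.9 CPM in CD62L-neg libraries against 808, 943 and 882 CPM in CD62L-int libraries, a log2 fold change of -3.88 ± 0.12 (SE, adjusted p = 1.81e-15, edgeR). Csf1r, the receptor for the macrophage growth factor M-CSF, had 21.3, 19.9 and 21.5 CPM in CD62L-neg libraries against 161, 181 and 154 CPM in CD62L-int libraries. Ctss, a lysosomal protease of antigen-presenting cells, had 1.15, 0.715 and 0 CPM in CD62L-neg libraries against 23.1, 28.4 and 32.8 CPM in CD62L-int libraries. Its log2 fold change of -5.46 ± 0.38 (SE) was the most negative among genes with at least 10 CPM in CD62L-int GMPs. Fn1, fibronectin, had 1.15, 1.19 and 0.1603 CPM in CD62L-neg libraries against 23.9, 33.4 and 33.2 CPM in CD62L-int libraries. Ly86, the partner of the Toll-like receptor homolog RP105, had 2.21, 2.78 and 2.96 CPM in CD62L-neg libraries against 55.2, 51.03 and 49.1 CPM in CD62L-int libraries. Ccr2, the chemokine receptor of inflammatory monocytes, had 7.18, 7.23 and 5.13 CPM in CD62L-neg libraries against 81.3, 65.7 and 60.7 CPM in CD62L-int libraries.

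The 16 called genes had 2.21% to 38.9% of their CD62L-int level in CD62L-neg GMPs, with a median of 12.1%. Bulk GMPs were at 76.9% to 170% of the CD62L-int level for the same genes, with a median of 104%. The summed level of the list was 635 to 651 CPM in CD62L-neg libraries against 2840 to 2960 CPM in CD62L-int libraries. The median log2 fold change of the list was -2.56. Cd68, Cx3cr1, Ms4a6b and Tmem176b were among those tested and not called, and Tmem176b had 54.4, 66.9 and 45.5 CPM in CD62L-neg libraries against 55.9, 45.05 and 49.8 CPM in CD62L-int libraries. Of 11 tested genes of dendritic cells and antigen presentation, only the lectin Clec10a was called, lower, against 2.43% of all tested genes. Clec10a lost the call in 3 of the 6 fits that left out 1 of these libraries. Of these 11 genes, 9 had negative log2 fold changes, and the median was -0.51. The summed level of that list was 225 to 258 CPM in CD62L-neg libraries against 317 to 322 CPM in CD62L-int libraries. Further genes of other kinds ranked with the monocyte genes by size. Nrp1, a coreceptor for semaphorins and VEGF, had 0.534, 0.635 and 1.36 CPM in CD62L-neg libraries against 26.3, 28.8 and 21.7 CPM in CD62L-int libraries. Apba1, an adaptor protein, had 6.34, 3.26 and 4.01 CPM in CD62L-neg libraries against 77.5, 98.7 and 103 CPM in CD62L-int libraries. Abca9, a lipid transporter, Tpm4, a tropomyosin, and Prdx4, a peroxiredoxin, had log2 fold changes of -4.32 ± 0.52, -4.07 ± 0.20 and -4.05 ± 0.35 (SE).

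**Figure D4:**
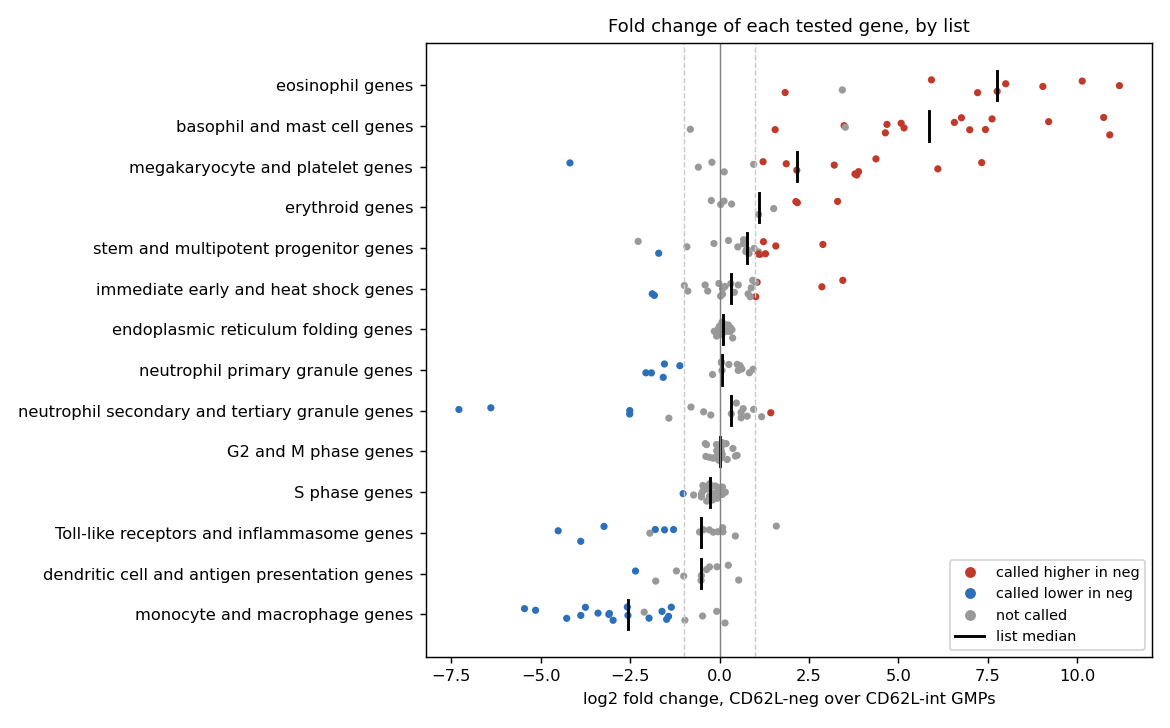
Log2 fold change of CD62L-neg over CD62L-int GMPs for each tested gene of 14 lists, with genes called higher in red, genes called lower in blue, genes not called in grey and the list median as a black bar; dashed lines mark a fold change of 2. The medians run between 7.76 for eosinophil genes at the top and -2.56 for monocyte and macrophage genes at the bottom, and the endoplasmic reticulum folding and G2 and M phase lists hold no called gene.

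Of 16 tested primary granule genes of neutrophils, 5 were called lower in CD62L-neg GMPs, against 2.43% of all tested genes, and none was called higher. The most abundant members were among the 11 not called. Besides Mpo, Elane had 2352, 2605 and 2719 CPM in CD62L-neg libraries against 2553, 2229 and 2659 CPM in CD62L-int libraries, Prtn3 had 983, 1001 and 1107 CPM in CD62L-neg libraries against 1207, 1132 and 1226 CPM in CD62L-int libraries, and Ctsg had 918, 1032 and 969 CPM in CD62L-neg libraries against 849, 784 and 821 CPM in CD62L-int libraries. Elane and Prtn3 encode neutrophil elastase and proteinase 3, and Ctsg encodes cathepsin G, all serine proteases of the primary granule. Their log2 fold changes were 0.05 ± 0.08, -0.20 ± 0.08 and 0.26 ± 0.08 (SE), and none reached the fold threshold. The 5 genes called lower were Lyz2, Mgst1, Slpi, Clec5a and Ctsc. Lyz2, the lysozyme of monocytes, macrophages and neutrophils, had 36.1, 29.5 and 45.4 CPM in CD62L-neg libraries against 122, 152 and 145 CPM in CD62L-int libraries. Slpi, a protease inhibitor, had 11.6, 14.1 and 12.7 CPM in CD62L-neg libraries against 40.9, 31.3 and 42.7 CPM in CD62L-int libraries. Ctsc, the protease that activates the granule proteases, had 32.2, 25.6 and 36.1 CPM in CD62L-neg libraries against 67.3, 68.5 and 68.6 CPM in CD62L-int libraries, and it lost its call without the second CD62L-neg library. Srgn, the granule proteoglycan serglycin, and Nkg7 leaned higher without reaching the fold threshold, at log2 fold changes of 0.94 ± 0.08 and 0.83 ± 0.10 (SE).

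Of 23 secondary and tertiary granule genes listed, 17 were tested. Of these, 1 was called higher and 4 lower, against 3.16% and 2.43% of all tested genes. Pglyrp1, a peptidoglycan recognition protein, was the higher one, with 37.5, 48.8 and 41.1 CPM in CD62L-neg libraries against 17.2, 12.8 and 17.3 CPM in CD62L-int libraries. Cybb, the catalytic subunit of the phagocyte NADPH oxidase, was lower, with 15.7, 16.3 and 25.3 CPM in CD62L-neg libraries against 108, 121 and 99.9 CPM in CD62L-int libraries. It was the only one of 7 oxidase genes called. Mmp8 had no count in CD62L-neg GMPs and was at least 18.9-fold lower there. Cd177 had 1 count in CD62L-neg and 120 counts in CD62L-int GMPs, a ratio of 111 of CD62L-int over CD62L-neg (95% counting interval 19.6 to 4430). Chil3 had 0.916, 0.0794 and 4.97 CPM in CD62L-neg libraries against 6.59, 12.1 and 15.5 CPM in CD62L-int libraries and was not called by DESeq2 (adjusted p = 0.0959). Ltf, Mmp9, Olfm4 and Retnlg were not tested.

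Among 15 tested cytokine receptors of progenitors, 3 were called higher and 4 lower in CD62L-neg GMPs, against 3.16% and 2.43% of all tested genes. The higher ones were Il5ra and Il1rl1, described above, and Tgfbr2, a TGF-beta receptor chain, with 31.1, 37.2 and 27.6 CPM in CD62L-neg libraries against 20.5, 10.7 and 8.904 CPM in CD62L-int libraries. The lower ones were Csf1r and Flt3 and both chains of the interleukin-6 receptor. Il6st, its signalling chain gp130, had 7.71, 5.72 and 10.98 CPM in CD62L-neg libraries against 107, 106 and 81.3 CPM in CD62L-int libraries, a log2 fold change of -3.58 ± 0.17 (SE). Il6ra, its ligand-binding chain, had 26.4, 23.2 and 30.1 CPM in CD62L-neg libraries against 106, 112 and 107 CPM in CD62L-int libraries. Csf3r, the G-CSF receptor, averaged 122 ± 17.6 CPM in CD62L-neg and 121 ± 10.7 CPM in CD62L-int GMPs (SD, n = 3 each), and it was not called, nor were Csf2rb, Csf2ra and Il3ra.

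Of 28 tested genes of adhesion and migration, 5 were called higher and 3 lower, against 3.16% and 2.43% of all tested genes. Cdh1, E-cadherin, had 44.4, 76.4 and 41.1 CPM in CD62L-neg libraries against 1.56, 0.352 and 1.46 CPM in CD62L-int libraries, a log2 fold change of 5.52 ± 0.40 (SE, adjusted p = 1.28e-09, edgeR). Vcam1, a ligand of the integrin VLA-4, had 40.5, 45.8 and 55.7 CPM in CD62L-neg libraries against 13.9, 10.7 and 15.2 CPM in CD62L-int libraries. Itga2b, Cd9 and Ccr1 were the other 3, and Ccr1 lost its call without the first CD62L-neg library. The lower ones were Itga1, a collagen-binding integrin chain, Ccr2 and Itgb5. Itga1 had 3.36, 1.83 and 2.64 CPM in CD62L-neg libraries against 41.96, 43.5 and 36.8 CPM in CD62L-int libraries. Cxcr4, Itgb1, Itgb2 and Itga4, which retain or guide progenitors in the marrow, were not called. Of 16 tested Toll-like receptor and inflammasome genes, 6 were called lower and none higher, against 2.43% of all tested genes called lower. Clec7a, the beta-glucan receptor dectin-1, had 4.43, 5.4 and 2.32 CPM in CD62L-neg libraries against 39.2, 40.2 and 35.9 CPM in CD62L-int libraries. Nlrp3, Cd180, Tlr2, Tlr9 and Tlr8 were the others, and Tlr8 rested on 1 count in CD62L-neg and 34 counts in CD62L-int GMPs.

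None of 22 tested G2 and M phase genes was called, and 1 of 22 S phase genes, Ccne1, was called lower, where 3.16% of all tested genes were called higher and 2.43% lower. These counts lie near the shares over all genes and are no result about the lists. Ccne1, cyclin E1, had 9.24, 6.27 and 8.33 CPM in CD62L-neg libraries against 12.6, 20.5 and 15.8 CPM in CD62L-int libraries, and it lost the call without the second library of either population. The S phase genes had negative log2 fold changes in 19 of 22 cases, with a median of -0.28, against 0.01 over all tested genes. Ccnd1, cyclin D1, was lower, with 3.44, 1.99 and 0.881 CPM in CD62L-neg libraries against 13.7, 16.98 and 11.6 CPM in CD62L-int libraries, and so was Cdkn2c, an inhibitor of its kinases, at a log2 fold change of -1.08 ± 0.24 (SE). None of 20 endoplasmic reticulum folding genes and 1 of 17 glycolysis genes, Slc2a3, was called, which also lies near the shares over all genes. Slc2a3, a glucose transporter, lost the call in 3 of the 6 fits that left out 1 of these libraries. Of 23 tested immediate early and heat shock genes, which can also respond to handling of cells, 4 were higher and 2 lower. Egr1, Ier3, Btg2 and Dusp1 were the higher ones, and Nr4a1 and Atf3 were lower. Of the 23 genes, 16 had positive log2 fold changes, with a median of 0.32. The summed level of the list was 7543 to 8064 CPM in CD62L-neg libraries against 5804 to 7108 CPM in CD62L-int libraries. Bulk GMPs averaged 64.1 CPM of Atf3 and 41.5 CPM of Nr4a1, above the mean of each CD62L-sorted GMP population. A part of handling was not tested. Ier3 had 45.8, 83.2 and 35.5 CPM in CD62L-neg libraries against 6.59, 9.41 and 6.91 CPM in CD62L-int libraries, and Atf3 had 10.8, 9.29 and 7.29 CPM in CD62L-neg libraries against 21.5, 37.04 and 39.1 CPM in CD62L-int libraries. Of 22 tested interferon response genes, Ddx58, an RNA sensor, was called higher and Mx1 lower. Such counts are near the shares over all genes and are no result about the list.

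Markers of lymphocytes were checked as a sign of other cells in the gate. Over all tested genes, 3.16% were called higher and 2.43% lower. Of 11 B cell genes, 2 were tested and 1, Ighm, was called, lower in CD62L-neg GMPs with 4.58, 4.29 and 6.09 CPM there against 85.9, 70.4 and 81.2 CPM in CD62L-int libraries. Of the members not tested, Ms4a1 and Ebf1 were among those with no count in the 6 libraries, Cd79a had 7 counts in CD62L-neg and none in CD62L-int GMPs, Cd22 had none and 7 counts, and Vpreb1 had 1 and 13 counts. The summed level of the list was 12.6 to 21.2 CPM in CD62L-neg against 84.6 to 99.3 CPM in CD62L-int libraries. Of 14 T and NK cell genes, only Lck was tested and called higher, on 82 counts in CD62L-neg and 2 counts in CD62L-int GMPs. Cd3e, Cd3g, Trac and Ncr1 had no count in the 6 libraries, whereas Cd8a had 5 counts and Prf1 had 6 counts in CD62L-neg GMPs and none in CD62L-int GMPs. The summed level of the list was 2.14 to 4.49 CPM in CD62L-neg libraries against 0.199 to 0.616 CPM in CD62L-int libraries. The part of lymphocytes in the results was not tested.

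The first step of CD62L gain was then set against the second, between CD62L-int and CD62L-high GMPs, in 1 fit of all 12 GMP libraries. The step difference is the log2 fold change of CD62L-neg over CD62L-int GMPs minus that of CD62L-int over CD62L-high GMPs. Both steps share the CD62L-int libraries, so an error in these moves them in opposite directions. With edgeR, the step difference passed an adjusted p of 0.05 in 97 of 13590 tested genes (0.714%), with 32 positive and 65 negative values.

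Monocyte genes made up part of the negative values, with 12 of the 23 tested in this fit. Irf8 had 22.8, 21.2 and 13.1 CPM in CD62L-neg libraries, 421, 444 and 418 CPM in CD62L-int libraries and 771, 754 and 726 CPM in CD62L-high libraries. In this fit its log2 fold change was -4.49 ± 0.17 at the first step and -0.81 ± 0.14 at the second, and the step difference was -3.68 ± 0.24 (SE, adjusted p = 1.89e-07, edgeR). Csf1r had 337, 288 and 282 CPM in CD62L-high libraries and a step difference of -2.12 ± 0.19 (SE), and F13a1 had 1366, 1540 and 1526 CPM there and a step difference of -3.14 ± 0.22 (SE). The difference of these genes between CD62L-neg and CD62L-int GMPs was thus larger on the log2 scale than that between CD62L-int and CD62L-high GMPs. Klf4, Il6st, Il6ra, Itga1, Clec7a, Cybb, Ccnd1, Atf3 and Ighm also had negative step differences past the threshold.

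Eosinophil genes made up part of the positive values, with 4 of 9 tested. The pooled CD62L-int libraries held 28 counts of Epx, 173 of Prg2, 40 of Prg3 and no count of Ear1. That left too little room for a further fall of similar log2 size at the second step. A positive step difference was therefore largely set in advance for these genes. Prg3 had 2.16, 1.797 and 0.338 CPM in CD62L-high libraries, beside 41.3, 78.7 and 57.4 CPM in CD62L-neg and 1.22, 0.792 and 0.864 CPM in CD62L-int libraries, and its step difference was 6.45 ± 0.83 (SE, adjusted p = 0.000336, edgeR). Epx and Prg2 passed in the fit of all libraries, with step differences of 8.03 ± 1.39 and 6.45 ± 1.05 (SE), but not without the third CD62L-high library, where they were 6.93 and 1.56 (adjusted p = 0.256 and 0.877, edgeR). Prg2 had 0, 0.0749 and 3.92 CPM in CD62L-high libraries, so the value rested on few counts there. Ear1 was the fourth and lost the call without the third CD62L-high library or any 1 of the CD62L-neg and CD62L-int libraries. Of 16 tested basophil and mast cell genes, Mcpt8, Ms4a2 and Alox5 passed. Ms4a2 had 75 counts in the pooled CD62L-int libraries and so had the same limit as the eosinophil genes. Mcpt8 had 2.72, 2.996 and 1.96 CPM in CD62L-high libraries and a step difference of 3.81 ± 0.48 (SE). Gata2 was the only one of 15 erythroid and megakaryocyte factors that passed, with 233, 347 and 208 CPM in CD62L-neg, 14.3, 11 and 10.03 CPM in CD62L-int and 4.399, 7.26 and 1.55 CPM in CD62L-high libraries and a step difference of 3.05 ± 0.56 (SE, adjusted p = 0.0103, edgeR).

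Other genes did not pass that test, so a difference between their steps was not shown. Itga2b, Vcam1, Gfi1 and Cebpe had step differences of -0.18 ± 0.54, -0.64 ± 0.44, -0.96 ± 0.26 and -0.65 ± 0.67 (SE). None of 15 tested megakaryocyte genes and none of 20 tested stem cell genes passed, where 0.714% of all genes in this fit did. These counts lie near that share and are no result about the lists. The count of genes past the threshold was sensitive to single libraries: it was 164 without the first CD62L-high library, which stood apart, and 61, 45 and 52 without the first, the second and the third CD62L-int library.

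**Figure D5:**
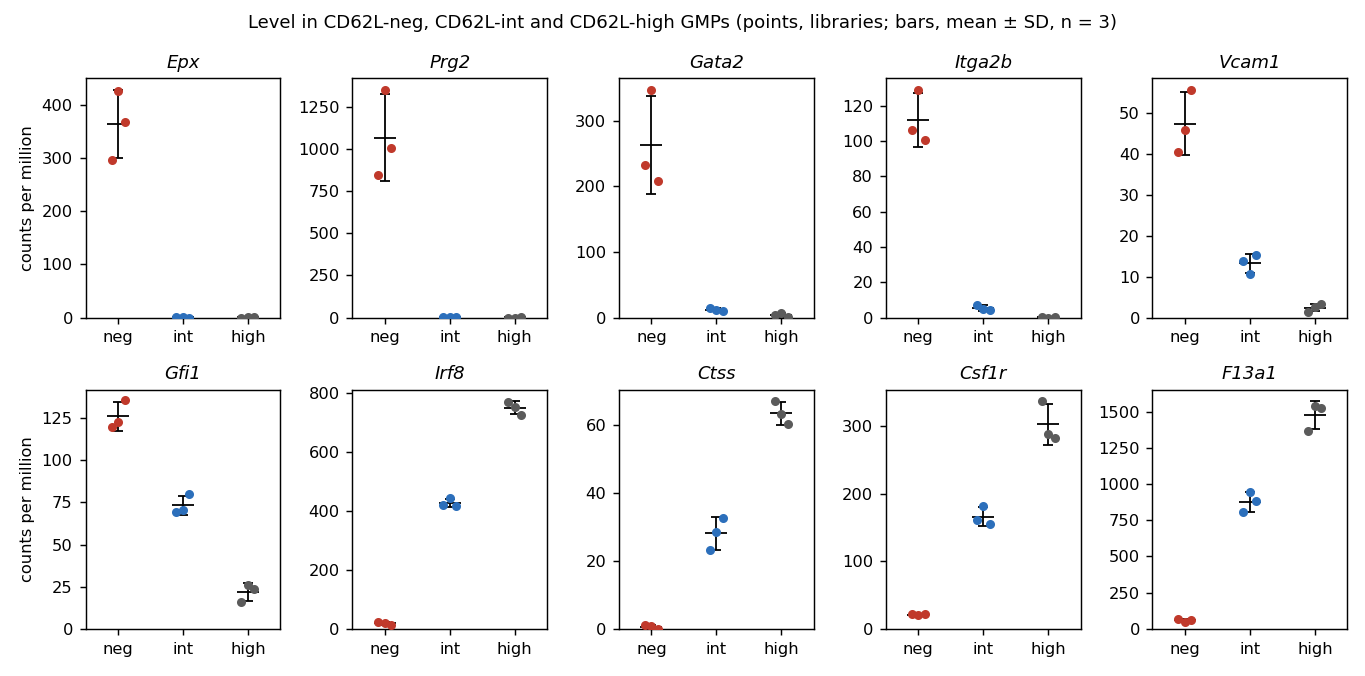
CPM on linear axes from 0 of 10 genes in each library of CD62L-neg, CD62L-int and CD62L-high GMPs (points), with the mean and SD of the 3 libraries (bars). Epx, Prg2 and Gata2 are high in CD62L-neg libraries alone, Itga2b, Vcam1 and Gfi1 are lower with each step, and Irf8, Ctss, Csf1r and F13a1 are higher with each step.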

How the data were processed

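RNA was extracted from sorted mouse bone marrow populations and sequenced, with 3 libraries per population. The submitters' processing notes name Trim Galore, HISAT2, HTSeq and the mm10 build, and the authors deposited raw counts per gene. Versions are not given in the sources used here. The labels and the study's methods name different library kits, and whether counting used strand is not given, so overlapping antisense genes are uncertain.

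Symbols were matched to 47224 of 47643 gene IDs (99.12%, GENCODE vM21). CPM values were scaled by trimmed mean of M values (TMM) over the 12 GMP libraries. The comparison of CD62L-neg over CD62L-int GMPs was fitted with edgeR 4.0.16 (R 4.3.3, filterByExpr, TMM, quasi-likelihood F test) on 9 libraries, bulk GMPs included to estimate the spread. The step difference was fitted on 12 libraries. The fold threshold was 2 and the adjusted p threshold 0.05. Alternatives included DESeq2 1.42.0, and the fits were tested on simulated data. Counting intervals are 95% and cover counting error only. Genes were named by a rule: all sort markers and lineage factors, the 12 largest changes per direction with at least 10 CPM, up to 5 called members per direction of each other list and 6 step genes per direction; further list members were named after their values were seen. The groups of genes and the comparison itself were chosen with earlier results of these data known. Some genes are not reported here.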

Additional observations from a re-analysis of the deposited data

How the results depend on the processing

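Under every alternative fit, no gene of the main calls was called in the opposite direction. These fits reuse the same libraries, so a reversal was hardly possible and its absence is no further support. Counts of genes called higher and lower in CD62L-neg GMPs were 471 and 351 with DESeq2, 303 and 305 with all 12 GMP libraries, 833 and 819 at an adjusted p alone, and 171 and 137 when the test itself was against a fold change of 2 (edgeR glmTreat), in place of 417 and 321. Leaving out 1 library gave 360 to 433 higher and 286 to 331 lower. The 97 genes with a step difference became 168 with DESeq2, 185 without a filter on low counts, 62 with only the 9 CD62L-sorted GMP libraries, and 45 to 164 with 1 library left out. Genes of few counts that lost their call in at least 1 of these fits included Gp9, Gp1ba, Vwf, Tcf7 and Clec10a.

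Same-numbered CD62L-neg and CD62L-int libraries had correlations of -0.113, -0.105 and 0.0104 of their deviations from the means. The largest value over all pairs was 0.137, for the second CD62L-neg and the first CD62L-int library. With 3 libraries per population, these values cannot decide whether libraries were paired. With the replicate number as a block, 398 genes were higher, 307 lower and 80 had a step difference.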
